A study of Mus musculus with 4 samples.

Results

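Genes of the nuclear pore and of the receptors that carry cargo through it were examined in transformed mouse fibroblasts with and without diethyl maleate (DEM). The set was chosen by gene name: nucleoporins (Nup), importins alpha and beta (Kpna, Kpnb), further importins (Ipo), exportins (Xpo) and transportins (Tnpo) with a number in the name, together with Ran, Rangap1, Ranbp1, Ranbp2, Rcc1, Tpr, Pom121, Nxf1 and Cse1l. Measured brightness selected only the probe that stands for each gene, the brightest on average over the 4 arrays. The name rule matched 52 of 49826 genes and transcripts on the array, through 91 probes. The group was proposed with the DEM comparison already known, so its counts are given as a description.

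The nuclear pore complex is a ring of nucleoporins set in the nuclear envelope. Stacked scaffold rings hold a central channel lined with nucleoporins rich in phenylalanine and glycine, with filaments on the cytoplasmic face and a basket on the nuclear face. Importins bind cargo in the cytoplasm and release it in the nucleus when they meet the small GTPase Ran in its GTP form, whereas exportins bind cargo together with Ran-GTP and release it outside. Rcc1 loads Ran with GTP on chromatin, and Rangap1 drives GTP hydrolysis in the cytoplasm.

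RNA came from C3H10T1/2 cells, a mouse embryo fibroblast line. Both groups carried the same earlier transformation, by 3-methylcholanthrene (2.5 µg/ml for 2 days) and then the phorbol ester TPA (100 ng/ml, over 2 weeks). Cells with no further treatment (2 arrays) were compared with cells exposed to 0.25 mM DEM (2 arrays), an electrophile that depletes glutathione. The length of the exposure was not stated in the labels. Nor is it stated whether the 2 samples of a group were cultured apart, so each p-value reflects sample-to-sample spread that may be purely technical.

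The 4 arrays lay on 1 slide scanned on 1 day. The untreated arrays occupied a different row of the slide from the DEM arrays, so position and treatment cannot be told apart. Levels are given on the log2 scale relative to each array's own 75th percentile, which was 701 and 747 signal units in untreated and 449.9 and 412 in DEM arrays. Of 10 fibroblast markers fixed for the label check, all 10 were measured, and 6 fell with DEM (11.8% of all genes were called lower). Their summed signal, in multiples of the 75th percentile, was 1550 to 1610 in untreated and 841 to 1248 in DEM arrays. Of the other markers, 3 of 6 epithelial (Krt5, Krt8 and Krt14) and 1 of 4 endothelial genes (Tek) were measured. So were 2 of 6 leukocyte (Cd68 and Lyz2) and 2 of 6 skeletal muscle genes. Tek was well above background only on the untreated arrays, and Lyz2 was called lower with DEM, by 3.61-fold. The epithelial Cdh1, endothelial Cdh5 and leukocyte Ptprc were among the markers not measured. The summed signal of the muscle pair, Acta1 and Tnnt1, was 6.28 to 7.57 in untreated and 0.525 to 0.549 in DEM arrays. The part of these marker changes in the results below was not tested. In bulk RNA, fewer cells of a type and less RNA per cell cannot be told apart.

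Of the 52 genes, 49 were well above background on at least 2 arrays and were tested, 47 of them on all 4 arrays. Nup210, a membrane nucleoporin, Nup62cl and Kpna7 were not well above background on any array. Their probes still differed by 0.58, 0.59 and 0.58 on the log2 scale, higher with DEM. The part of background in the differences of dim members such as Xpo4 was not tested. With DEM, 22 of the 49 were higher and 0 lower at an adjusted p under 0.05 (limma, Benjamini-Hochberg over all 24656 genes and transcripts). At an unadjusted p under 0.05, 31 were higher and 1 lower, beside 10155 of all 24656 genes and transcripts in either direction. The share of all genes called at the adjusted threshold was 27.2%, with 15.5% higher and 11.8% lower. Among the pore and transport genes 44.9% were higher. The share of all genes called higher stands beside the counts for each smaller group of members below. Changes of at least 2-fold were called for 12 members higher and 0 lower, against 8.67% and 9.74% of all genes. Both DEM arrays lay above both untreated arrays for 40 of the 49 (42.4% of all genes) and below them for 3 (26% of all genes). Nup210l entered only through the DEM arrays, and without it 21 of 48 were higher, 11 of them by at least 2-fold. The median difference over the 49 was 0.69 on the log2 scale, beside 0.16 over all genes tested.

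These counts depended on which arrays were fitted and on scaling. The median difference of the members was 0.70 without untreated 1 and 0.68 without untreated 2, beside 0.69 with all 4 arrays. Without untreated 1, 5 of the 22 passed (Nup153, Nup54, Nup88, Ran and Tnpo1), and without untreated 2 only Ran and Rangap1 did. The share of all genes called higher was then 3.38% and 2.61%. With scaling to spike-in control RNA, 0 of the 49 passed by limma and 1 had an unadjusted p under 0.05, while the median difference was 0.53. Under that scaling 1.47% of all genes were higher and 3.61% lower, and the log2 distance from spike-in level to 75th percentile was -2.76 and -3.41 in untreated and -2.79 and -3.70 in DEM arrays. After cyclic loess 16 of the 49 were higher and Nup98 was lower, against 10.3% and 14.9% of all genes. Higher genes made up 56.8% of all calls here, 40.8% after cyclic loess, 70.2% with normexp background correction, 42.0% with the percentile over detected probes, 84.7% with no filter on dim probes and 29.0% with spike-in scaling. The median of all genes was 0.01 after cyclic loess, so differences below are relative to the 75th percentile.

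**Figure D1:**
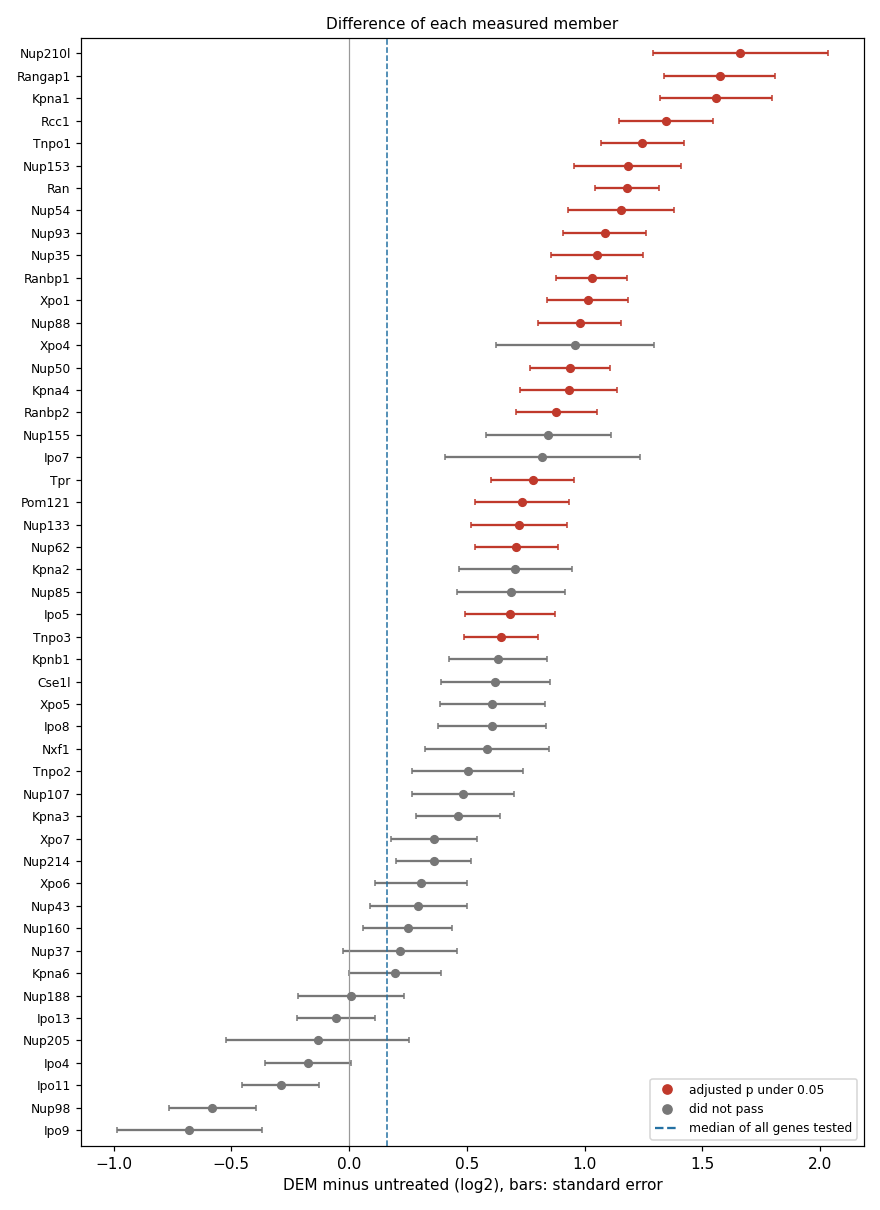
DEM minus untreated difference (log2, x axis) of each of the 49 measured members, with standard errors from limma (n = 2 arrays per group); red points passed at an adjusted p under 0.05 and the dashed line marks the median of all genes tested, 0.16. The 22 members that passed lie between 0.65 and 1.66, and 6 members lie below 0. The value of 1.66 is that of Nup210l, which entered the test only through the DEM arrays, and the next highest is Rangap1 at 1.57.

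All 4 genes of the Ran cycle rose (15.5% of all genes were called higher), each by at least 2-fold on the probe that stands for it. Ran, the GTPase itself, had levels of 6.04 and 6.11 in untreated and 7.21 and 7.30 in DEM arrays. The pairs were tight and did not overlap, and the difference was 1.18 ± 0.14 (SE), or 2.26-fold (adjusted p = 0.00369, limma). Rangap1, the activator of GTP hydrolysis, was at 1.89 and 2.27 untreated and at 3.42 and 3.88 with DEM, a 2.97-fold rise (1.57 ± 0.24, adjusted p = 0.00737). Its other kept probe differed by 0.82, and its call was lost with the second brightest probe. Rcc1, the chromatin-bound exchange factor, went from -1.15 and -1.16 to 0.09 and 0.28, or 2.54-fold (1.34 ± 0.20, adjusted p = 0.00717). Ranbp1, which helps Rangap1 to release Ran from exported complexes, went from 4.85 and 4.69 to 5.81 and 5.79, or 2.04-fold (1.03 ± 0.15, adjusted p = 0.00686). The other kept Ranbp1 probe differed by 1.35. For each of the 4 genes both DEM arrays lay above both untreated arrays. All 4 also passed after quantile normalization and after cyclic loess. Without untreated 1 the calls of Rangap1, Rcc1 and Ranbp1 were lost, and without untreated 2 those of Rcc1 and Ranbp1; all 4 were lost with spike-in scaling, where their median difference was 1.10. Mouse carries a near-identical intronless copy of Ran, Rasl2-9, whose RNA the Ran probe may also bind.

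Import receptors of the beta family, which carry cargo through the channel, did not move as a block. Of 11 measured, 3 were higher (15.5% of all genes were called higher) and 8 did not pass, with differences from -0.68 to 1.24. Tnpo1, the carrier of many RNA-binding proteins, was at 3.63 and 3.33 in untreated and 4.68 and 4.76 in DEM arrays. These groups were well apart, a difference of 1.24 ± 0.18 or 2.37-fold (adjusted p = 0.00622, limma). Tnpo3, which imports serine and arginine rich splicing factors, rose 1.56-fold (3.49 and 3.56 against 4.12 and 4.22), and Ipo5, a carrier of ribosomal proteins and histones, rose 1.61-fold (1.47 and 1.38 against 2.26 and 1.96). Tnpo3 and Ipo5 did not pass after quantile normalization or cyclic loess. Without untreated 1, Tnpo1 alone of the 3 passed, without untreated 2 none did, and without DEM 1 Ipo5 did not.

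Kpnb1, importin beta itself, had levels of 2.93 and 2.89 in untreated and 3.77 and 3.31 in DEM arrays. Its DEM arrays were above the untreated ones, yet the difference of 0.63 ± 0.21 did not pass (adjusted p = 0.0693, range 0.0141 to 1.00 over the alternatives). It passed without DEM 2 (adjusted p = 0.0141, limma), with the mean of all kept probes (0.0380) and with the second brightest probe (0.0254). A further Kpnb1 probe differed by 0.87. Ipo8 (0.61 ± 0.23), Tnpo2 (0.50 ± 0.24) and Ipo7 (0.82 ± 0.41) also had higher DEM arrays and did not pass, although Ipo8 passed without DEM 1, and Tnpo2 and Ipo7 without DEM 2. Ipo7, which carries ribosomal proteins, was at -1.34 and -2.39 on the DEM arrays, more than 1 log2 unit apart. Ipo4 (-0.17 ± 0.18) and Ipo13 (-0.06 ± 0.17) had overlapping groups. Ipo11, at 3.15 and 3.11 untreated and 2.78 and 2.89 with DEM, and Ipo9, at -0.53 and -0.58 untreated and -0.83 and -1.64 with DEM, had both DEM arrays below the untreated ones. Neither passed, with differences of -0.29 ± 0.16 and -0.68 ± 0.31. Without DEM 1, Ipo9 was called lower.

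Importins alpha are the adaptors that recognise the classical nuclear localisation signal and tether it to Kpnb1. Of 5 measured, 2 rose (15.5% of all genes were called higher) and 3 did not pass. Kpna1 (importin alpha 5) was at 0.06 and -0.07 in untreated and 1.82 and 1.29 in DEM arrays. The gap between the groups was larger than the spread within either, and the difference was 1.56 ± 0.24, or 2.94-fold (adjusted p = 0.00778, limma). Kpna4 (importin alpha 3) rose 1.91-fold, from 0.94 and 0.58 to 1.76 and 1.61, and its other kept probes differed by 1.68 and 1.05. Kpna2, the importin alpha abundant in dividing cells, was at 4.32 and 4.34 untreated and 4.70 and 5.37 with DEM. Its DEM arrays were both higher but far from each other, and the difference of 0.71 ± 0.24 did not pass (adjusted p = 0.0784). Without DEM 1 it passed (adjusted p = 0.00586, limma). The other kept Kpna2 probe differed by only 0.15. Kpna3 (0.46 ± 0.18) had higher DEM arrays without passing (it passed with no filter on dim probes), and Kpna6 (0.19 ± 0.19) had overlapping groups. Kpna1 and Kpna4 passed after quantile normalization and cyclic loess, and neither passed without untreated 1, without untreated 2 or with spike-in scaling.

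Export receptors lay on the same side for every measured member, but 1 of 7 passed (15.5% of all genes were called higher). Xpo1 (CRM1), the receptor for leucine-rich export signals, was at 2.41 and 2.20 in untreated and 3.33 and 3.31 in DEM arrays. Its groups did not overlap, with a difference of 1.01 ± 0.17 or 2.02-fold (adjusted p = 0.0106, limma). The call was lost without untreated 1, without untreated 2 and with spike-in scaling. Cse1l (CAS), which returns importins alpha to the cytoplasm, was at 1.57 and 1.15 untreated and 2.16 and 1.80 with DEM, a difference of 0.62 ± 0.23 that did not pass (adjusted p = 0.0983). Its second probe differed by 0.10. Nxf1, the main mRNA export receptor, was at -1.14 and -0.85 untreated and -0.14 and -0.68 with DEM (0.59 ± 0.26, adjusted p = 0.149). Cse1l and Nxf1 passed without DEM 2, and Xpo5 without DEM 1. Xpo5, the exporter of microRNA precursors (0.61 ± 0.22), Xpo4 (0.96 ± 0.34), Xpo7 (0.36 ± 0.18) and Xpo6, the exporter of actin (0.31 ± 0.19), had both DEM arrays higher and did not pass. Xpo4 was well above background on 3 arrays, and it passed with normexp and with no variance trend.

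**Figure D2:**
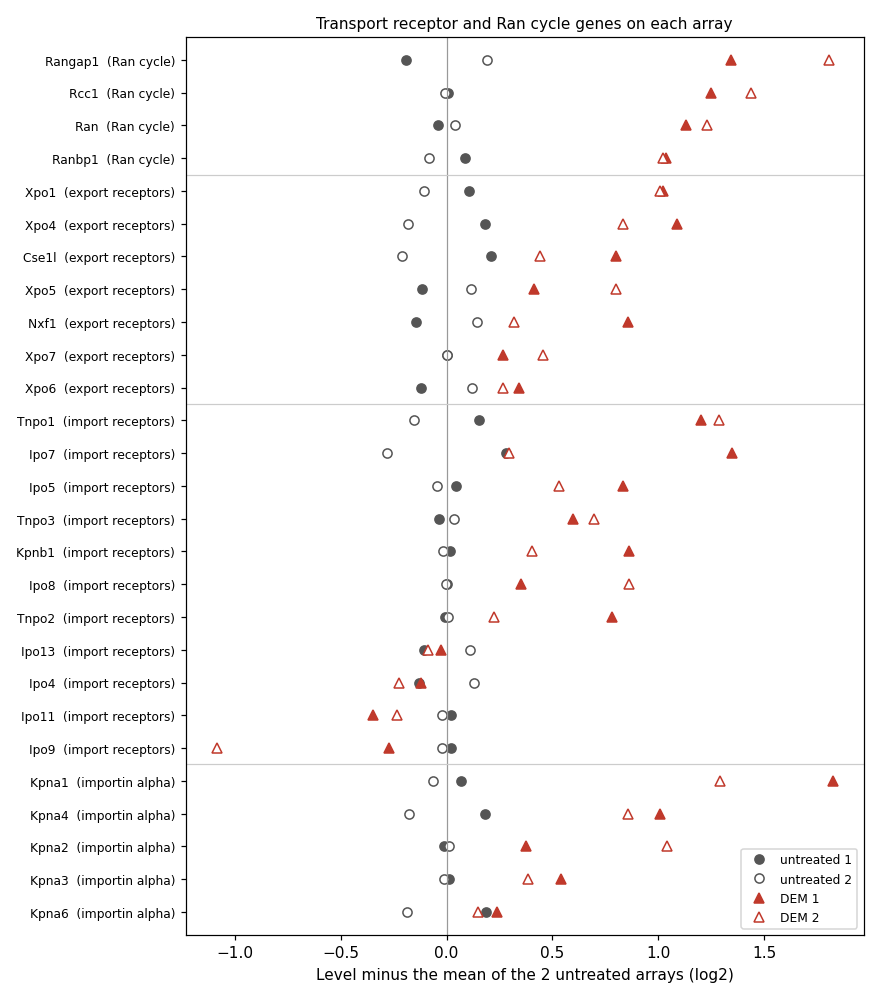
Levels of the transport receptor and Ran cycle genes on each array (log2, x axis), as the distance from the mean of the 2 untreated arrays of the same gene; circles are untreated and triangles DEM arrays, filled for replicate 1 and open for replicate 2. The DEM arrays of Ran, Rcc1, Rangap1 and Ranbp1 lie to the right of both untreated arrays, while those of Ipo9 and Ipo11 lie to the left.

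Scaffold nucleoporins form an outer and an inner ring. Of 6 measured members of the Y complex, the outer ring that shapes the pore, 1 passed (15.5% of all genes were called higher). Nup133 was at 2.53 and 2.33 in untreated and 2.96 and 3.34 in DEM arrays, a non-overlapping 1.65-fold rise (0.72 ± 0.20, adjusted p = 0.0464, limma). It did not pass after quantile normalization or cyclic loess, or without untreated 1, untreated 2 or DEM 2. Nup85 was at 4.96 and 4.71 untreated and 5.24 and 5.80 with DEM, and its difference of 0.69 ± 0.23 did not pass (adjusted p = 0.0728). Without DEM 1 it passed (adjusted p = 0.00994, limma). Nup107 (0.48 ± 0.22), Nup43 (0.29 ± 0.21) and Nup160 (0.25 ± 0.19) had higher DEM arrays without passing, and Nup37 (0.22 ± 0.24) had overlapping groups. Whether the outer and inner rings differ from each other was not tested.

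The inner ring anchors the channel, and 2 of its 5 measured genes rose (15.5% of all genes were called higher). Nup93, its organising subunit, was at 1.91 and 1.82 in untreated and 2.86 and 3.04 in DEM arrays. The difference was 1.08 ± 0.17, or 2.12-fold (adjusted p = 0.00896, limma). Nup35 (also called Nup53), a membrane-binding subunit, rose 2.07-fold, from 2.69 and 2.32 to 3.61 and 3.50 (1.05 ± 0.20, adjusted p = 0.0137). Both calls held after quantile normalization and cyclic loess and were lost without untreated 1, without untreated 2 and with spike-in scaling. Nup155 was at 0.84 and 0.69 untreated and 1.27 and 1.95 with DEM, a difference of 0.85 ± 0.27 that did not pass (adjusted p = 0.0622) but did without DEM 1 and with normexp, and its other probes differed by 0.28 and -0.12. The large scaffold genes Nup188 (0.01 ± 0.22) and Nup205 (-0.13 ± 0.39) had overlapping groups. Nup205 was at -1.60 and -2.71 on the DEM arrays, above and below the untreated pair of -1.99 and -2.05.

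Of the membrane nucleoporins Pom121, an integral protein that joins the pore to the envelope, was at 0.65 and 0.94 in untreated and 1.44 and 1.61 in DEM arrays. It rose 1.66-fold (0.73 ± 0.20, adjusted p = 0.0422, limma), while its other probes differed by -0.16 and 0.12. The Pom121 call was lost without untreated 1, untreated 2 or DEM 2, and after quantile normalization and cyclic loess. Nup210l, a relative of Nup210, was well above background only on the DEM arrays (-3.27 and -3.88, against -5.15 and -5.32 untreated). It was at least 2.35-fold higher, measured against the lowest level well above background on each untreated array. Nup210l passed the brightness filter only through the DEM arrays, so its call is a description and no p-value is given.

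Nucleoporins of the central channel carry the phenylalanine and glycine repeats that form the transport barrier. Nup54 was at 1.40 and 0.94 in untreated and 2.44 and 2.21 in DEM arrays, apart by 1.15 ± 0.23 or 2.23-fold (adjusted p = 0.0159, limma). Its partner Nup62 was at 2.64 and 2.89 untreated and 3.52 and 3.42 with DEM, and rose 1.63-fold (0.71 ± 0.18, adjusted p = 0.0322). Without untreated 2 neither passed, without untreated 1 or DEM 1 Nup62 did not, and Nup62 did not pass after quantile normalization or cyclic loess. Nup98, a repeat nucleoporin that is also found away from the pore, went the other way. It was at 0.69 and 0.61 in untreated and 0.11 and 0.03 in DEM arrays. The pairs were close and did not overlap, but the difference of -0.58 ± 0.18 did not pass (adjusted p = 0.0645, range 0.0292 to 1.00 over the alternatives). Nup98 was called lower after cyclic loess, with the percentile over detected probes and with no filter on dim probes.

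On the cytoplasmic face 2 of 3 measured genes rose (15.5% of all genes were called higher). Nup88, which holds the cytoplasmic filaments, was at 4.36 and 4.02 in untreated and 5.14 and 5.20 in DEM arrays. This 1.97-fold rise (0.98 ± 0.18, adjusted p = 0.0127, limma) was lost without untreated 2 and with spike-in scaling. Ranbp2 (Nup358), the large filament protein that holds SUMO-modified Rangap1 at the pore, was at 2.93 and 2.69 untreated and 3.67 and 3.71 with DEM. It rose 1.84-fold (0.88 ± 0.17, adjusted p = 0.0161), its other probe differed by 0.86, and its call was lost without untreated 1, without untreated 2 and with spike-in scaling. Nup214, the binding partner of Nup88, was at 3.17 and 3.16 untreated and 3.48 and 3.56 with DEM, and its difference of 0.36 ± 0.16 did not pass (adjusted p = 0.145).

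All 3 nuclear basket genes rose (15.5% of all genes were called higher). Nup153, the basket anchor, was at 2.10 and 1.60 in untreated and 2.94 and 3.12 in DEM arrays, a 2.27-fold rise (1.18 ± 0.23, adjusted p = 0.0149, limma). Its other probes differed by 0.91 and 0.80, and both DEM arrays lay above both untreated arrays. Nup50, which helps to free importin alpha from cargo, rose 1.92-fold, from 2.52 and 2.71 to 3.53 and 3.58 (0.94 ± 0.17, adjusted p = 0.0126). Tpr, the filament of the basket, rose 1.72-fold, from 4.03 and 4.03 to 4.65 and 4.97 (0.78 ± 0.17, adjusted p = 0.0238). Tpr did not pass after quantile normalization or cyclic loess. Without untreated 1 only Nup153 of the 3 passed, and without untreated 2 none did.

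**Figure D3:**
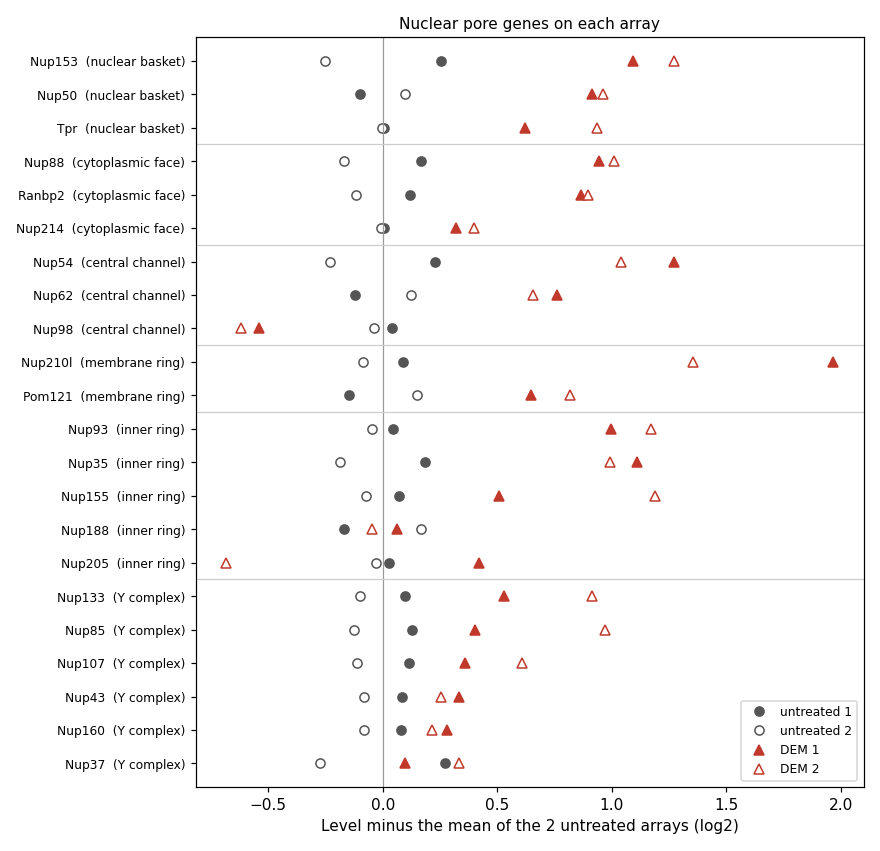
Levels of the nuclear pore genes on each array (log2, x axis), as the distance from the mean of the 2 untreated arrays of the same gene; circles are untreated and triangles DEM arrays, filled for replicate 1 and open for replicate 2. The basket genes Nup153, Nup50 and Tpr have both DEM arrays to the right of the untreated arrays, and Nup98 has both to the left.

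Probes that did not stand for a gene gave a second reading of the same RNA. Of the 49 genes, 25 had further probes that passed the brightness filter, 32 in all. On 27 of these the DEM mean lay on the same side as on the brightest probe, and on 5 it lay on the other side. Among the 11 called genes with further probes, 14 of 15 probes had the same side, the exception being a Pom121 probe. The opposite probes otherwise belonged to Nup98, Nup155, Nup205 and Kpna6, none of which passed. The second brightest probe was then put in place of the brightest for these 25 genes, while the rest kept their only probe. In that fit 14 of the 49 were higher, against 13.3% of all genes. Of the 11 called genes with further probes, only Ipo5, Nup50 and Ranbp1 kept their call. Kpna4, Nup153, Nup54, Pom121, Ranbp2, Rangap1, Tnpo3 and Tpr lost it. Nup133 also lost its call, although its only kept probe and its difference of 0.72 were unchanged.

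Probe sequences from the array files are given for Nup98, whose probes did not all have the same sign, and for 2 Nup50 probes that were alike. All are 60 bases long, in lower case. The Nup98 probe that stands for the gene had a difference of -0.58, the next -0.13 and the dimmest 0.18. The 2 Nup50 probes shown had differences of 0.94 and 1.11.
Nup98, brightest: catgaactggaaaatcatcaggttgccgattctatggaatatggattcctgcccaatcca
Nup98, next: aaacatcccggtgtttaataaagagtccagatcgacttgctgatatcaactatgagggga
Nup98, dimmest: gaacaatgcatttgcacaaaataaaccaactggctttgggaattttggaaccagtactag
Nup50, brightest: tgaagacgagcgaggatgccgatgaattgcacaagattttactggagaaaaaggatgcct
Nup50, next: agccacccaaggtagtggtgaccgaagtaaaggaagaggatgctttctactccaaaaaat
The dimmest Nup98 probe was at -4.56 and -4.30 in untreated and -4.22 and -4.27 in DEM arrays, and was well above background on 2 arrays. The Nup98 probes disagreed in sign, but the next and the dimmest had standard errors of 0.30 and 0.33, larger than their differences. Both Nup50 probes shown were higher on both DEM arrays. A further Nup50 probe, not shown, differed by 0.22. Its groups overlapped, at 0.43 and 0.55 in untreated and 0.95 and 0.47 in DEM arrays.

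**Figure D4:**
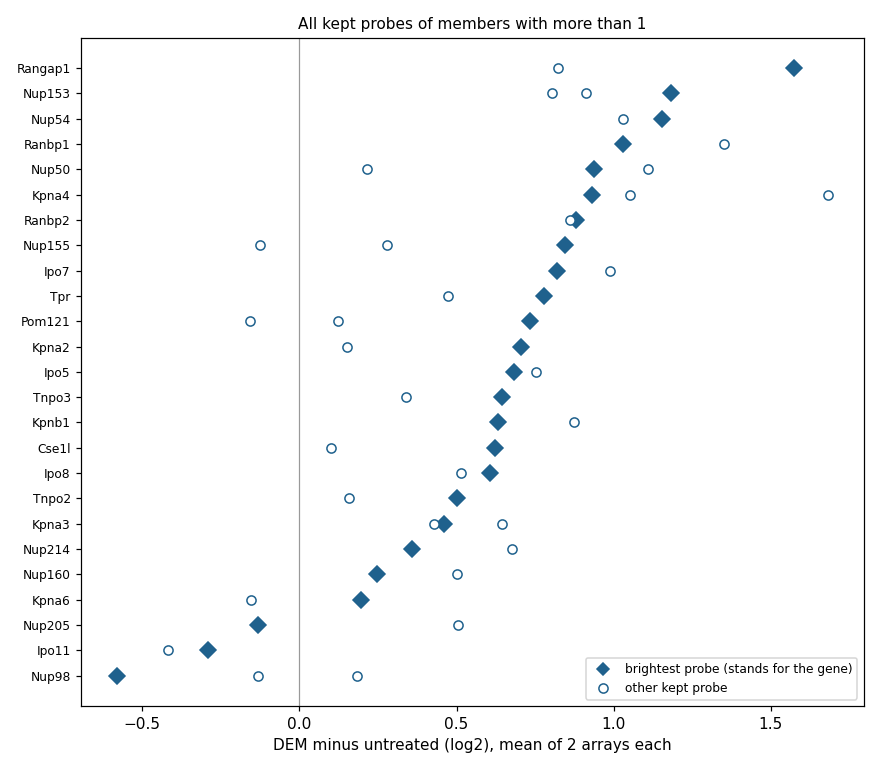
DEM minus untreated difference (log2, x axis) of every kept probe of the 25 genes with more than 1; filled diamonds are the brightest probe and open circles the others. Of the 32 other probes, 27 lie on the same side of 0 as the diamond of their gene.

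Promoters of the set were searched for sites of factors that respond to electrophiles or to growth signals. RefSeq promoter windows (GRCm38.p6, 250 bases before to 50 after the start) matched 42 of the 52 genes by symbol, with 50 windows; Cse1l, Kpna1, Kpna3, Kpna6, Nup210l, Nup35, Nup43, Nup85, Xpo4 and Xpo7 were the others. The E-box CACGTG, bound by Myc and related factors, was in 8 of the 50 windows (16%), against 7.15% of all 32851 windows. The core of the antioxidant response element, TGACNNNGC on either strand, was in 6 (12%), against 12.4% of all windows. A heat shock element of the blocks GAA, TTC and GAA, each 2 bases apart, was in 0 of 50, against 0.603% of all. The windows of the set had a median of 64.3% G and C, against 52.7% over all windows, and the part of base composition in these shares was not tested. A match is a run of letters and not a shown binding site.

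Among called genes, CACGTG lay before the start of Ran (118 bases upstream), Ranbp2 (87), Nup54 (100) and Nup93 (175). The 250 bases before the start are shown on the strand of the gene, with CACGTG and, in Ranbp2, also TGACNNNGC in capitals. Their positions in GRCm38.p6 are chr5:129019906-129020155 (plus strand) for Ran, chr10:58446602-58446851 (plus) for Ranbp2, chr5:92435200-92435449 (minus) for Nup54 and chr8:94214314-94214563 (plus) for Nup93.
Ran: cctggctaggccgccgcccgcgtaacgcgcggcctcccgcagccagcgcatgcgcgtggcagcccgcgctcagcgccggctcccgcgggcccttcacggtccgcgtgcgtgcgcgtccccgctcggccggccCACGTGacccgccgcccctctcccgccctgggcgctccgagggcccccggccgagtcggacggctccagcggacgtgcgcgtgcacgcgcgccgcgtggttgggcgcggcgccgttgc
Ranbp2: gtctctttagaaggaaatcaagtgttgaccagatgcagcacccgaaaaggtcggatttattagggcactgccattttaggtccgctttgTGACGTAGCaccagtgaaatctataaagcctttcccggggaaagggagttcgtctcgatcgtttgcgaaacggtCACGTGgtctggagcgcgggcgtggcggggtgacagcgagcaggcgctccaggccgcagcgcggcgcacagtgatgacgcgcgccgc
Nup54: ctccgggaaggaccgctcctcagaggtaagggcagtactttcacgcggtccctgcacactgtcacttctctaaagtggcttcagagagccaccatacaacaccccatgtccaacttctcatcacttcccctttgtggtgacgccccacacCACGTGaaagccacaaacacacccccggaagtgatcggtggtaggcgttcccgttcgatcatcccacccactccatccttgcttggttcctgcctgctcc
Nup93: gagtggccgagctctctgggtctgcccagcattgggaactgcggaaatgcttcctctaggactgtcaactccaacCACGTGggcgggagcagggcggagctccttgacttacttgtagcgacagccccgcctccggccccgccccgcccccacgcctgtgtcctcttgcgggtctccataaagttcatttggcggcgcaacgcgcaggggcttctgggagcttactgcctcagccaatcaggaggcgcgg
CACGTG was also in windows of 4 genes that did not pass, Ipo4, Ipo7, Nup188 and Tnpo2, so the letters occur on both sides of the call.

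Other pore and transport factors, whose names the rule does not match, were counted from a fixed list. Among the 24 that could be tested, 10 rose and 1 fell, and the median difference was 0.56. Those with the smallest p were Ahctf1 (ELYS), which seeds pore assembly on chromatin, 2.88-fold higher (1.53 ± 0.21, adjusted p = 0.00573, limma), and Tmem33, 2.46-fold higher (1.30 ± 0.20, adjusted p = 0.00845). The membrane nucleoporin Ndc1 and the cytoplasmic nucleoporin Aaas also rose, by 3.19-fold and 3.07-fold; these were named after their values were seen. Ranbp6, an importin relative, was the gene that fell, by 0.86 on the log2 scale. Both DEM arrays lay above both untreated arrays for 16 of the 24 (42.4% of all genes) and below them for 3 (26% of all genes). Of all genes 15.5% were called higher and 11.8% lower, and the median over the 49 members was 0.69. Most genes of the list were not called, but higher genes were not confined to the names that the rule matches.

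Lists next to transport had smaller medians. Over all genes the median was 0.16, with 15.5% called higher and 11.8% lower. The shares called higher among the adaptor, SUMO and proliferation genes below lie near that of all genes. Of 21 mRNA export adaptors 3 rose and 2 fell, with a median of 0.06; Alyref rose 2.39-fold and Cetn2, a centrin that also sits at the pore, fell by 1.11. Of 21 nuclear envelope and lamina genes 5 rose and 1 fell, with a median of 0.46. The envelope protein gene Lemd2 rose 2.08-fold and the A-type lamin gene Lmna 2.20-fold, while Lmnb1, a B-type lamin and named after its value was seen, fell by 0.97. Of 16 SUMO machinery genes 2 rose and 2 fell, with a median of 0.09. Sumo3 fell by 0.94 and the ligase gene Pias2 rose 1.63-fold. Of 24 proliferation genes 3 rose and 0 fell, with a median of 0.22. At an unadjusted p under 0.05, 5 of them differed, beside 10155 of all 24656 genes and transcripts. The replication genes Pcna and Mcm7 rose 2.20-fold and 2.26-fold, and Mki67, a marker of cycling cells, differed by 0.01 ± 0.62. The part of proliferation in the pore and transport results was not tested.

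**Figure D5:**
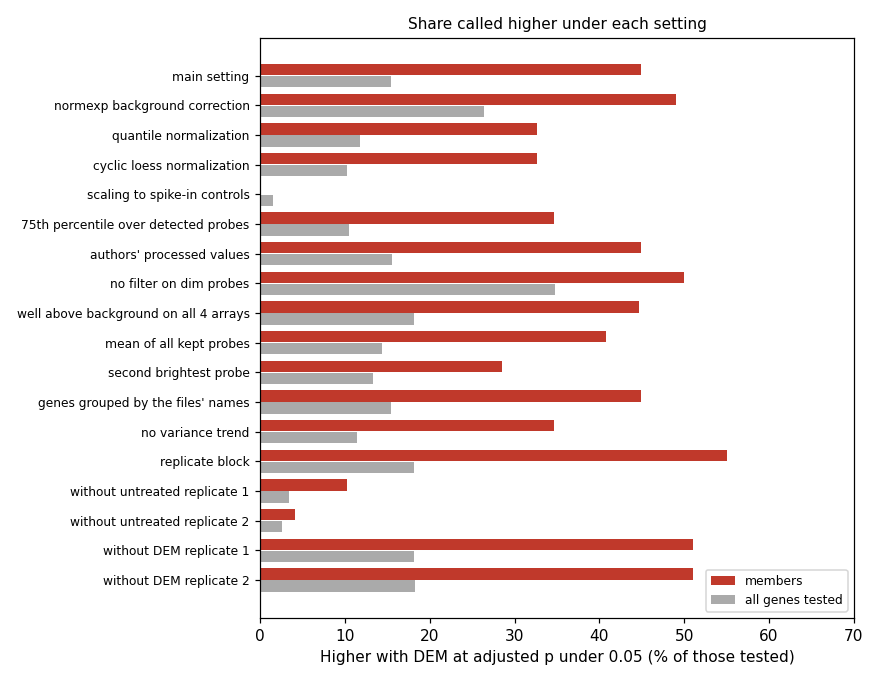
Share of the pore and transport genes (red) and of all genes tested (grey) called higher with DEM at an adjusted p under 0.05 (x axis, percent of those tested) under each processing setting. The main setting gives 44.9% against 15.5%; without untreated replicate 1 or 2 the red bars are 10.2% and 4.08%, and with spike-in scaling the red bar is 0.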

How the data were processed

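Labelled RNA (500 ng per sample, Cy3, per the labels' protocols) was hybridised to a custom Agilent mouse array. Spot intensity values were deposited by the authors as written by Agilent Feature Extraction 10.7.3.1, per the file headers, with spatial and multiplicative detrending and surrogates for low signals. The deposited series table holds log2 values that lay within 0.01 of log2 processed signal minus the array's 75th percentile for at least 99.98% of probes on each array; it served as an alternative.

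Control spots and outlier-marked spots were left out (130 probes lost), spots of a probe averaged, and the 75th percentile over non-control spots subtracted. No spot was saturated. Symbols were updated through RefSeq (34524 gene probes matched, 6105 kept the file's name); no member was renamed. A probe entered the test if 2 or more of the 4 arrays marked it well above background, and the brightest such probe stood for its gene. Array headers name mm9 but map no probe, so no gene coordinates are given.

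Groups were compared with limma 3.58.1 (R 4.3.3; lmFit, eBayes with intensity trend, no covariate, 2 residual and 4.03 prior degrees of freedom), two-sided, and p-values were adjusted by Benjamini-Hochberg across the whole table (threshold 0.05). Tests were checked on simulated data. The number of arrays limits the precision. Values with full statistics are given for called members of at least 2-fold, the extreme members of each role and 13 genes fixed by name. The members and lists were chosen with earlier results of these data known. Alternatives covered background correction, normalization, filters, probe choice, naming, variance model, the replicate block and each array left out.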

Additional observations from a re-analysis of the deposited data

How the results depend on the processing

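The 22 higher members became 0 with spike-in scaling and 14 with the second brightest probe, and 2 to 25 with 1 array left out; a group with a lone array is assumed to vary like the other. The lower members (0) became 1 after cyclic loess, with the percentile over detected probes and with no filter on dim probes, and 0 to 1 with 1 array left out. The median difference of 0.69 was 0.50 after cyclic loess and between 0.65 and 0.80 with 1 array left out, positive under every alternative run. Over all genes, 3812 higher became 6495 with normexp, 2529 after cyclic loess, 363 with spike-in scaling, 17297 with no filter and 644 to 4488 with 1 array left out; 2900 lower became 889 with spike-in scaling and 801 to 3814 with 1 array left out. Nup205 (-0.13) turned to 0.22 with normexp, 0.19 with the mean of all kept probes, 0.50 with the second brightest probe, and lay between -0.68 and 0.42 with 1 array left out. Kpna6 (0.19) turned to -0.00074 after cyclic loess and -0.15 with the second brightest probe, and Nup37 (0.22) lay between -0.057 (without untreated 2) and 0.49 with 1 array left out. Where scaling or the probe moved a value, the cause was not tested; fits with 1 array left out have fewer samples. Labels give both groups the replicate numbers 1 and 2, but same-numbered arrays shared little (correlation of deviations 0.0844). With the replicate block 27 members were higher, the 22 and Cse1l, Kpna2, Kpnb1, Nup155 and Nup85, against 18.1% of all genes. Of 492 further comparisons of named members, 398 kept direction and call, 74 lost the call, 13 gained it and 7 turned sign.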
